A study of Mus musculus with 6 samples.

Results

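The genes of the DNA replication machinery were examined in sorted MEP, the megakaryocyte-erythroid progenitors of bone marrow from which platelet-forming and red cells arise. The set was a fixed list of 46 genes for replication origins, the replicative helicase, the clamp and its loader, the polymerases and nucleotide supply. A member was taken from the array where a probe set carried its symbol alone, and the probe set of highest mean over all arrays stood for the gene. In this way 45 of the 46 were measured, out of 22180 named genes. Rfc4, a clamp loader subunit, lies only on a probe set that names several genes and has no value here. The 2 groups were 3 T-bet knockout and 3 wild-type mice, all C57BL/6 and with 1 Affymetrix array per mouse. T-bet is a transcription factor best known from T helper 1 and natural killer cells, and Tbx21 is its gene. The cells were stained with antibodies and sorted from fresh whole marrow, and no treatment of the animals is named. The sources used here do not give the age or sex of the mice, the knockout allele or the sort markers. The comparison asked whether MEP without T-bet differ in the transcripts of the replication apparatus.

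Replication starts at origins, where the origin recognition complex together with Cdc6 and Cdt1 loads the ring-shaped Mcm2-7 helicase before S phase, a step called licensing. Kinases then recruit Cdc45 and the GINS complex, the ring becomes an active helicase, and primase, polymerases, the sliding clamp and the enzymes of the lagging strand copy the DNA. Many of these genes are known to be transcribed together around entry into S phase under E2F transcription factors, and dividing erythroid progenitors are known to express them strongly.

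Values are log2 signals, in which 1 unit is a doubling, and differences are knockout minus wild type throughout. All 45 genes were read well within the upper part of the array, with mean signals from 8.03 for Orc1 to 12.03 for Pcna. These lay at or above the 75.3 percentile of all probe sets, the base of every percentile given here. None lay among the dimmest 30% of probe sets, whose limit was 5.70. Array medians were between 6.44 and 6.53. The erythroid transcription factor genes Gata1 and Klf1 had means over the 6 arrays of 10.96 and 10.66, at percentiles 96.7 and 95.7. The other erythroid markers lay between 7.24, at the 65.1 percentile for Slc4a1, and 13.67, at the 99.9 percentile for Car1. The signal of Tbx21 was 6.41, 6.60 and 6.46 on knockout arrays 1 to 3 against 6.54, 6.62 and 6.60 on wild-type arrays 1 to 3, so the targeted gene gave no check of the genotype. Xist, made by cells with 2 X chromosomes, read between 11.79 and 12.21 in knockout replicates 1 and 2 and wild-type replicates 1 and 2, and 5.42 and 5.56 in the other two. The Y-linked Eif2s3y read 4.95 in wild-type replicate 2 and between 8.39 and 9.73 in the others. Both signals were therefore present in 3 arrays, which goes against 1 mouse per array: wild-type replicate 1 and knockout replicates 1 and 2. Results were also computed without these 3 arrays. The limma p-values set the difference between the groups against the spread of arrays within groups. For each gene that spread is drawn towards a value common to all probe sets. In bulk RNA, fewer cells in cycle and less transcript per cell cannot be told apart.

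Promoter sequences are shown for 5 members. Their promoters hold letters typical of E2F binding sites. Of the members with such letters, those shown read lowest in the same arrays, as described further on. That they share these arrays thus comes from the choice. RefSeq windows on GRCm38.p6, from 250 bases before to 50 bases after the start of transcription, were at hand for 38 of the 46 members (47 windows). The search took 4 words of 8 letters, TTTCCCGC, TTTCGCGC, TTTGCCGC and TTTGGCGC, on both strands, and a window counted once however many words it held. At least 1 of them stood in 14 of the 47 windows (29.8%), each of a different gene, against 744 of 32851 windows of all genes (2.26%). Below are the 200 bases before the start, 5′ to 3′ on the strand of the gene, upstream of the transcribed part, with the words in capitals.
Mcm5, chr8:75109309-75109508, plus strand: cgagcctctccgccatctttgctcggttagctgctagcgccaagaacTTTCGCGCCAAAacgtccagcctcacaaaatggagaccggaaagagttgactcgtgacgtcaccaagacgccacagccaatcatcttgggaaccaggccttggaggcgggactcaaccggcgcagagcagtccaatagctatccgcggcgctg
Mcm6, chr1:128359706-128359905, minus strand: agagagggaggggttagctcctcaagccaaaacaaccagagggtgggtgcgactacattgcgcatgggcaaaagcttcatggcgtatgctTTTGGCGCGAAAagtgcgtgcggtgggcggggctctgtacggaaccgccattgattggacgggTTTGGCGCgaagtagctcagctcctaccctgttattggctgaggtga
Mcm7, chr5:138171884-138172083, minus strand: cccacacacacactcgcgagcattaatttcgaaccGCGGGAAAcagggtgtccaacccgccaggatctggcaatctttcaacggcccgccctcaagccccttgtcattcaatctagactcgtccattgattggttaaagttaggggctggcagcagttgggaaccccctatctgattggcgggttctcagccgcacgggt
Gins3, chr8:95633359-95633558, plus strand: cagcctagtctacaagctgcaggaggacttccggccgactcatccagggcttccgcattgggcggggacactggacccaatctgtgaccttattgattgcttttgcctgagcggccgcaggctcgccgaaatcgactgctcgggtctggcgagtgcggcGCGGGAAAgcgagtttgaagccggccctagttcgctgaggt
Cdc6, chr11:98907951-98908150, plus strand: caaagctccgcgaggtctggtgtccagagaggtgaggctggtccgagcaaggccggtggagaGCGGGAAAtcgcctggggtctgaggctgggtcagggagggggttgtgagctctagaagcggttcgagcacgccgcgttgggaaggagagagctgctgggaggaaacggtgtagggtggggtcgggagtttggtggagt

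Mcm5 and Mcm6 each show a run in which a word on one strand overlaps a word on the other, and Mcm6 has a further word nearer the start. Besides these 5, the words stood in the windows of Cdt1, Orc1, Orc3, Mcm3, Pola1, Pold1, Pole2, Rfc3 and Lig1. Of these, Orc1, Orc3, Pola1 and Rfc3 also held a word within the 200 bases before the start. They are not shown, and their lowest wild-type array was replicate 3, unlike in the 5 shown. A link between the words and the arrays that read lowest was not tested. Of all measured members, 66.7% had the array numbered 1 lowest in both groups. The letters CCAAT, a common promoter element, were in 25 windows of members (53.2%) and in 37.4% of all windows. Both kinds were in 8 windows of members (17.0%) against 0.962% of all. In windows of 21 mitosis genes an E2F-type word was found in 1 of 22 (4.55%) and CCAAT in 16 (72.7%). A match describes the letters of the window and is no evidence of binding.

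No replication gene passed the test for a difference between the genotypes. Of the 45 members, 0 passed the limma adjusted p of 0.05, and every member had an adjusted p of 1 (Benjamini-Hochberg over all 41345 probe sets, of which 0%, or 0, were called). At an unadjusted limma p under 0.05 there were also 0 members, with p between 0.12 for Gins3 and 0.988 for Mcm4. Among all genes this count was 695 (3.13%), with 1.44% higher and 1.70% lower in the knockout. Among the 6433 genes within the members' range of mean signal it was 25 (0.389%), so a count of 0 is near the share of genes of like signal. The differences of the members were small, from -0.14 for Pole to 0.18 for Gins3. They lay within 0.1 of 0 for 39 members. For a single gene, 3 arrays against 3 cannot give an exact two-sided permutation p below 0.1, the value of groups that do not overlap.

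The spread that limma used, in part common to all probe sets, was narrow enough to bound the difference of each gene. Standard errors ran from 0.09 for Mcm4 to 0.15 for Fen1. For all 45 measured members the 95% interval stayed within 1.5-fold, up or down. The widest bounds were those of Gins1, at 1.30-fold lower, and Gins2, at 1.38-fold higher. A narrower bound of 1.25-fold held the interval of 31 members (68.9%). Over all genes that share was 34.8%, and over genes of like signal it was 63.0%.

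**Figure D1:**
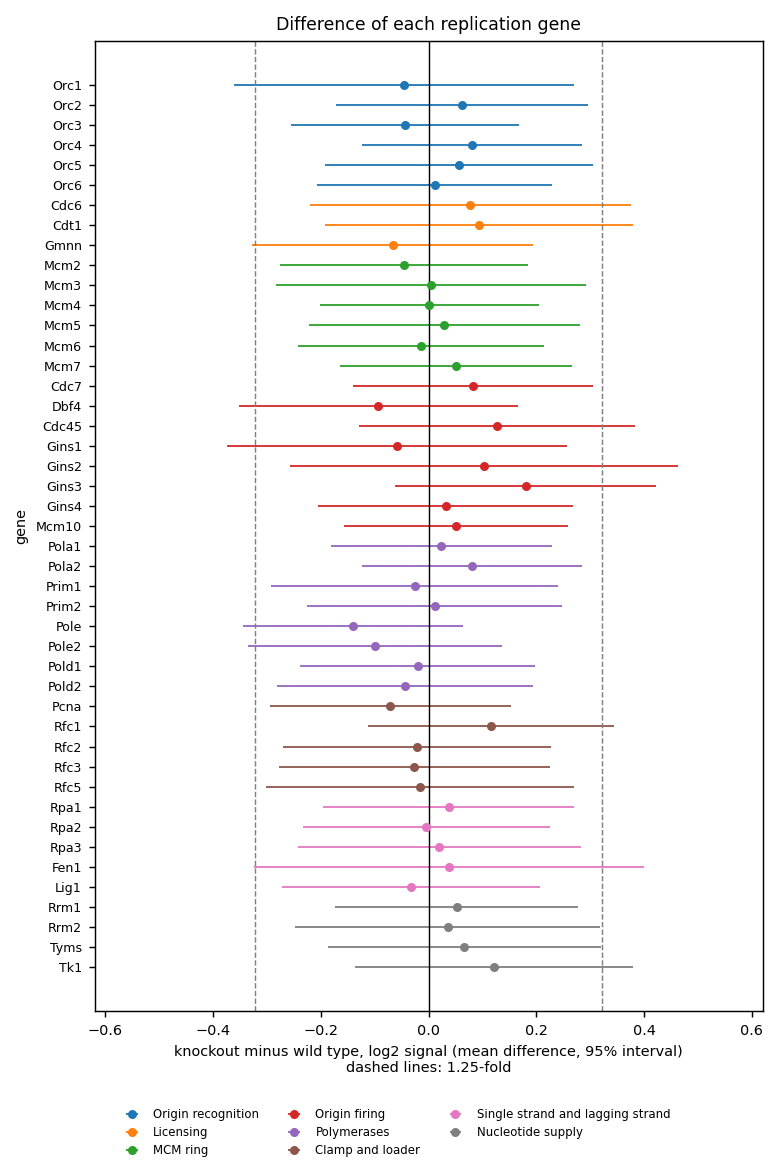
Points are the mean differences of the 45 measured replication genes, knockout minus wild type in log2 signal, with 95% intervals from limma, n = 3 arrays per group; colours mark the role and dashed lines 1.25-fold. All intervals cross 0, and those of 14 genes reach past a dashed line.

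In direction, 27 members had a difference above 0 and 18 below (60.0% above, against 48.2% of all genes and 55.7% of genes of like signal), with a median of 0.02. The median was -0.00 over all genes and 0.01 over genes of like signal. This lean rested on single arrays. Without knockout replicate 3 the median was -0.01, with 17 members above 0, and without wild-type replicate 1 it was -0.03, with 20 above 0. Without knockout replicate 1 it was 0.08, with 34 above 0, and without wild-type replicate 2 it was 0.06, with 36 above 0. Over all genes the median was -0.01 without knockout replicate 3 and -0.02 without wild-type replicate 1. It was -0.0002 without knockout replicate 1 and -0.0019 without wild-type replicate 2. In a fit that blocks on the sex-linked signal (both, Y-linked alone, Xist alone) the median of the members was 0.07, with 39 above 0. Wild-type replicate 2 stands alone in its class there, so that fit too leaves it out of the difference. In none of these fits did a member reach an unadjusted limma p of 0.05. The 3 knockout values lay all above or all below the 3 wild-type values for 3 members, Gins3, Rfc1 and Pole (6.67%), against 8.70% of all genes and 5.49% of genes of like signal.

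The 6 subunits of the origin recognition complex, which marks the sites where the helicase is loaded, had differences from -0.05 to 0.08. Orc4 read 9.70, 9.74 and 9.68 on knockout arrays 1 to 3 against 9.60, 9.70 and 9.58 on wild-type arrays 1 to 3. Its difference was 0.08 (SE 0.09, 95% interval -0.12 to 0.28), and its groups overlapped only through knockout replicate 3 and wild-type replicate 2. Orc2, another core subunit, read 10.43, 10.63 and 10.57 in the knockout against 10.44, 10.56 and 10.44 in the wild type. The difference of Orc2 was 0.06 (SE 0.10, interval -0.17 to 0.30), with the wild-type values inside the range of the knockout. Orc1, the ATPase subunit that is known to cycle with S phase entry in mammalian cells, had the widest spread of the complex. It read 7.81, 8.05 and 8.16 in the knockout against 7.98, 8.23 and 7.95 in the wild type, a difference of -0.05 (SE 0.13, interval -0.36 to 0.27). The sign for Orc1 turned in several alternative fits. Orc3 differed by -0.04, Orc5 by 0.06 and Orc6 by 0.01.

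Licensing factors showed the same overlap. Cdt1, which brings the helicase ring to the origin, read 10.46, 10.63 and 10.79 on knockout arrays 1 to 3 against 10.43, 10.65 and 10.52 on wild-type arrays 1 to 3, a difference of 0.09 (SE 0.12, interval -0.19 to 0.38). Its highest value was in knockout replicate 3, and the lowest in each group was in the array numbered 1. Cdc6, the ATPase that works with it, read 10.83, 11.11 and 11.17 against 10.85, 10.97 and 11.07, a difference of 0.08 (SE 0.12, interval -0.22 to 0.37). Here too both arrays numbered 1 were lowest and lay within 0.1 of each other. Gmnn encodes geminin, the inhibitor of Cdt1, and differed by -0.07 (SE 0.11, interval -0.33 to 0.19). None of the 3 intervals stayed within 1.25-fold.

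The 6 genes of the Mcm2-7 ring were the most tightly bounded role. Their differences ran from -0.05 for Mcm2 to 0.05 for Mcm7, with a median of 0.00, and all 6 intervals lay within 1.25-fold. Mcm7 read 11.63, 11.72 and 11.79 on knockout arrays 1 to 3 against 11.61, 11.70 and 11.68 on wild-type arrays 1 to 3 (difference 0.05, SE 0.09, interval -0.16 to 0.27). Mcm2 read 10.98, 11.06 and 11.16 against 11.03, 11.19 and 11.12 (difference -0.05, SE 0.10, interval -0.28 to 0.18). In both genes the groups overlapped. Mcm3 varied most in this role, at 11.06, 11.34 and 11.42 in the knockout against 11.20, 11.34 and 11.28 in the wild type, while its means differed by 0.00 (SE 0.12, interval -0.28 to 0.29). Mcm4, Mcm5 and Mcm6 differed by 0.00, 0.03 and -0.01. For all 6 ring genes the array numbered 1 was the lowest of its group in both genotypes.

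Origin firing factors turn the loaded ring into the active helicase, and their differences covered the widest range of any role, with 6 of 8 above 0 and a median of 0.07. Without knockout replicate 3 the median was 0.02, with 5 above 0. Gins3 (probe set 17504321), a subunit of the 4-part GINS complex, read 9.15, 9.23 and 9.29 on knockout arrays 1 to 3 against 8.91, 9.09 and 9.13 on wild-type arrays 1 to 3. Its means were 9.22 ± 0.07 and 9.04 ± 0.12 (SD, n = 3), and the lowest knockout value lay just above the highest wild-type value. The difference of 0.18, or 1.13-fold (SE 0.10, interval -0.06 to 0.42), had the smallest limma p of all members, 0.12, with an adjusted p of 1. Without wild-type replicate 1 the difference was 0.11. The other GINS genes did not share this separation. Gins1, Gins2 and Gins4 differed by -0.06, 0.10 and 0.03, and their groups overlapped. Gins2 had the largest SD over the 6 arrays of all members, 0.19, with 8.92, 9.30 and 9.41 in the knockout against 9.08, 9.25 and 9.003 in the wild type. Its difference ran from 0.0025 without knockout replicate 3 to 0.25 without knockout replicate 1.

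Cdc45, which joins GINS on the ring, read 8.88, 9.16 and 9.15 on knockout arrays 1 to 3 against 8.90, 8.96 and 8.95 on wild-type arrays 1 to 3. Knockout replicates 2 and 3 lay above all wild-type arrays, while knockout replicate 1 was the lowest of the 6. The difference was 0.13 (SE 0.11, interval -0.13 to 0.38), and it was 0.22 without knockout replicate 1 and 0.08 without knockout replicate 2 or 3. Cdc7, the kinase that phosphorylates the ring, and Dbf4, its activator, differed by 0.08 and -0.09, in opposite directions. Mcm10, which acts when the helicase is activated, differed by 0.05.

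**Figure D2:**
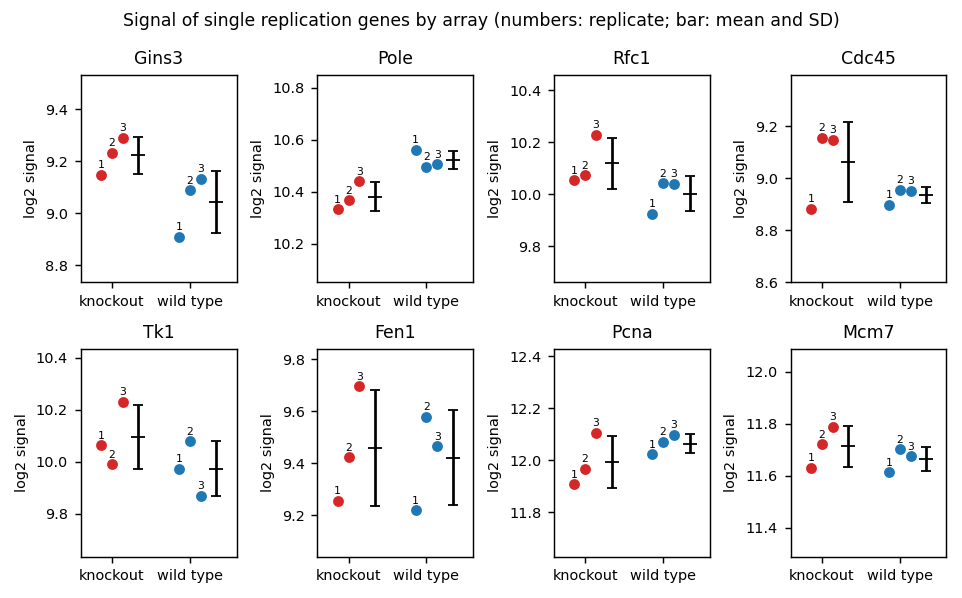
Log2 signal of 8 replication genes on each array, with the replicate number beside each point and bars for the mean and SD (n = 3 per group). Gins3, Rfc1 and Pole are the genes whose groups do not overlap, and in the other 5 panels the knockout and wild-type points overlap.

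Polymerase genes had 5 of 8 differences below 0 and a median of -0.02. The median was 0.02 without knockout replicate 1 and 0.01 without wild-type replicate 2, each with 5 of 8 above 0. Pole (probe set 17440465), the catalytic subunit of polymerase epsilon, which copies the leading strand, read 10.33, 10.37 and 10.44 on knockout arrays 1 to 3 against 10.56, 10.50 and 10.50 on wild-type arrays 1 to 3. All knockout values lay below all wild-type values, with means of 10.38 ± 0.06 and 10.52 ± 0.04 (SD, n = 3). The difference was -0.14, or 0.907-fold (SE 0.09, interval -0.35 to 0.06). A second, dim probe set for Pole, with a mean of 5.62, differed by 0.07. Pole2, the second subunit of the same enzyme, read 9.80, 9.93 and 9.95 against 9.92, 10.10 and 9.94, a difference of -0.10 (SE 0.10, interval -0.34 to 0.14), and its groups overlapped. Prim1, the catalytic primase subunit, varied most in this role, at 10.20, 10.50 and 10.35 in the knockout against 10.27, 10.43 and 10.42 in the wild type (difference -0.03, SE 0.11, interval -0.29 to 0.24). Of its partners in the primase complex, Prim2, Pola1 and Pola2 differed by 0.01, 0.02 and 0.08. Pold1 and Pold2, of lagging strand polymerase delta, differed by -0.02 and -0.04.

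Pcna, the sliding clamp that tethers the polymerases, read 11.91, 11.97 and 12.10 on knockout arrays 1 to 3 against 12.02, 12.07 and 12.10 on wild-type arrays 1 to 3. The groups overlapped through knockout replicate 3, and the difference was -0.07 (SE 0.09, interval -0.30 to 0.15). Among the loader subunits that open the clamp, Rfc1 was the one with separate groups, at 10.05, 10.07 and 10.23 against 9.93, 10.04 and 10.04. The gap between its groups was far smaller than the spread within the knockout, and its difference was 0.12 (SE 0.10, interval -0.11 to 0.34), or 0.06 without knockout replicate 3 and 0.08 without wild-type replicate 1. Rfc5 read 9.68, 9.94 and 9.87 against 9.71, 10.002 and 9.83, with a difference of -0.02 (SE 0.12, interval -0.30 to 0.27). Rfc2 and Rfc3 differed by -0.02 and -0.03.

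Proteins that guard single strands and finish the lagging strand had differences from -0.03 to 0.04. Fen1, the nuclease that trims the flaps between fragments, had the largest standard error of all members. It read 9.26, 9.42 and 9.70 on knockout arrays 1 to 3 against 9.22, 9.58 and 9.46 on wild-type arrays 1 to 3, a difference of 0.04 (SE 0.15, interval -0.32 to 0.40). Both of its lowest values were in the arrays numbered 1, and a second probe set of lower signal differed by 0.22. Lig1, which seals the fragments, read 9.84, 9.86 and 9.99 against 9.80, 9.99 and 9.99 (difference -0.03, SE 0.10, interval -0.27 to 0.21). Rpa1, the large subunit of the single-strand binding protein RPA, read 10.01, 10.19 and 10.20 against 10.03, 10.15 and 10.11 (difference 0.04, SE 0.10, interval -0.20 to 0.27). For both genes the ranges of the groups overlapped. Rpa2 and Rpa3, the smaller RPA subunits, differed by -0.00 and 0.02.

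All 4 genes of nucleotide supply had a difference above 0, from 0.04 to 0.12, none past the test. Without knockout replicate 3, 2 of the 4 were above 0. Tk1, thymidine kinase of the salvage route, read 10.06, 9.99 and 10.23 on knockout arrays 1 to 3 against 9.97, 10.08 and 9.87 on wild-type arrays 1 to 3, a difference of 0.12 (SE 0.11, interval -0.14 to 0.38), or 0.05 without knockout replicate 3 and 0.07 without wild-type replicate 3. Tyms, thymidylate synthase, read 9.13, 9.17 and 9.36 against 9.23, 9.18 and 9.04 (difference 0.07, SE 0.11, interval -0.19 to 0.32). Knockout replicate 3 was the highest array for both, and wild-type replicate 3 the lowest. Rrm2, the subunit of ribonucleotide reductase whose amount is known to follow S phase, read 10.35, 10.50 and 10.67 against 10.35, 10.54 and 10.53 (difference 0.04, SE 0.12, interval -0.25 to 0.32). Rrm1, its large partner, differed by 0.05.

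What the replication genes shared was a pattern over arrays that cut across genotype. In 30 of the 45 (66.7%) the array numbered 1 was the lowest of its group in both genotypes, against 23.0% of all genes and 52.0% of genes within the members' range of mean signal. Knockout replicate 1 was the lowest knockout array for 40 members and wild-type replicate 1 the lowest wild-type array for 31. Among the 6433 genes of like signal these counts were 4792 and 3890. Relative to each gene's mean over the 6 arrays, the members averaged -0.10, 0.04 and 0.08 on knockout arrays 1 to 3 against -0.07, 0.06 and -0.02 on wild-type arrays 1 to 3. The array numbered 1 lay below the mean of the other two by a median of -0.14 in the knockout and -0.10 in the wild type. These gaps between arrays of 1 genotype exceeded the median difference of 0.02 between the genotypes.

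**Figure D3:**
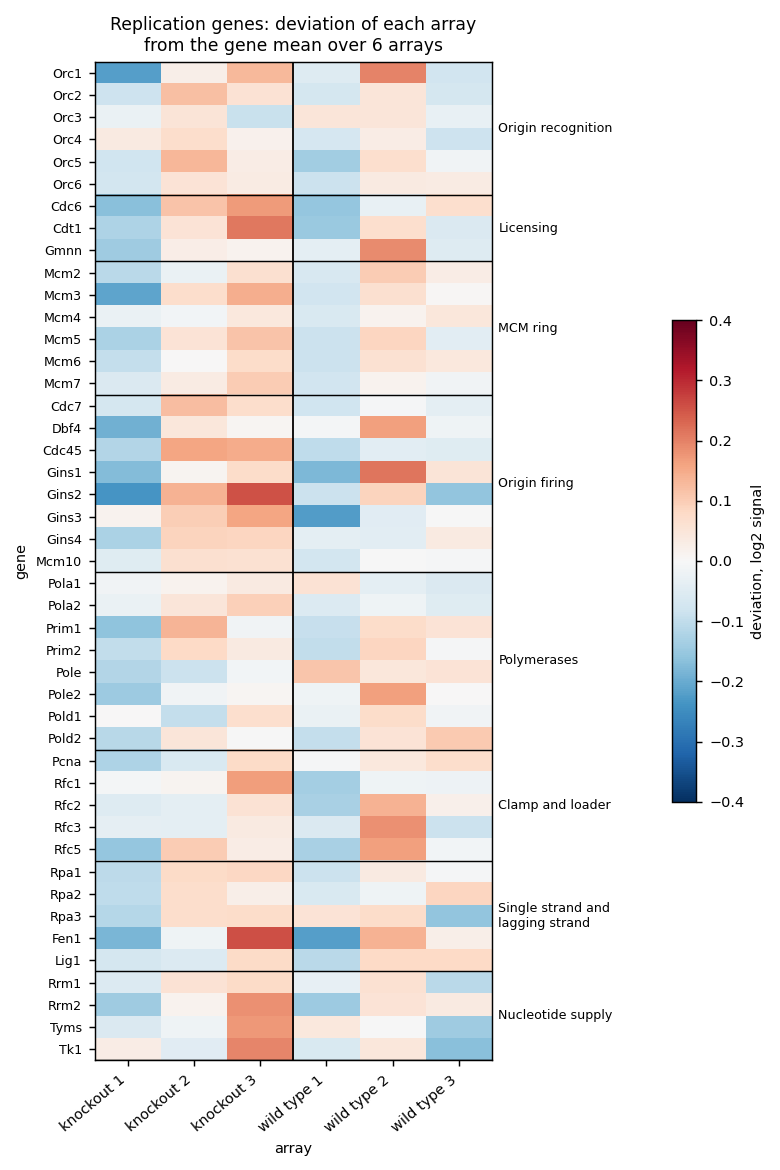
Colour gives the deviation of each array from the gene's mean over 6 arrays, in log2 signal, for the 45 measured replication genes ordered by role. The columns for knockout replicate 1 and wild-type replicate 1 are mostly blue, below the gene mean for 41 and 40 genes, and knockout replicate 3 is below it for 4.

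The exceptions were spread over the roles. The pattern held for all 6 ring genes, for 5 of 8 firing factors and polymerases alike, and for 4 of 5 genes each in the clamp and loader and the lagging strand groups. It held for 3 of 6 origin recognition genes, 2 of 3 licensing factors and 1 of 4 genes of nucleotide supply. Bright genes in general showed a smaller shift of the same shape, with averages of -0.08, 0.03 and 0.06 in the knockout against -0.05, 0.03 and 0.00 in the wild type. The arrays numbered 1 also had the highest medians, 6.53 and 6.51, and the lowest 90th percentiles of signal, 9.55 and 9.59. After quantile normalization the averages of the members were -0.05, 0.02 and 0.05 in the knockout against -0.05, 0.03 and -0.01 in the wild type. The count with both arrays lowest was then 22 members (48.9%), against 34.8% of genes of like signal, and with arrays centred on their median 36 (80.0%) against 71.7%. The part of the overall signal distribution in the pattern was not tested beyond these values.

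Mitosis genes, such as those of cyclins, the spindle and the kinetochore, had the same shape. Their averages were -0.15, 0.07 and 0.13 on knockout arrays 1 to 3 against -0.11, 0.06 and -0.00 on wild-type arrays 1 to 3. Both arrays numbered 1 were lowest for 21 of 25 (84.0%). After quantile normalization this held for 20 of the 25. Cyclins and kinases of G1 had both arrays lowest for 3 of 8 genes. Their averages were -0.10, 0.06 and 0.06 in the knockout against -0.06, -0.0035 and 0.04 in the wild type. Erythroid markers averaged -0.07, 0.05 and 0.11 in the knockout against -0.07, -0.01 and -0.01 in the wild type.

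**Figure D4:**
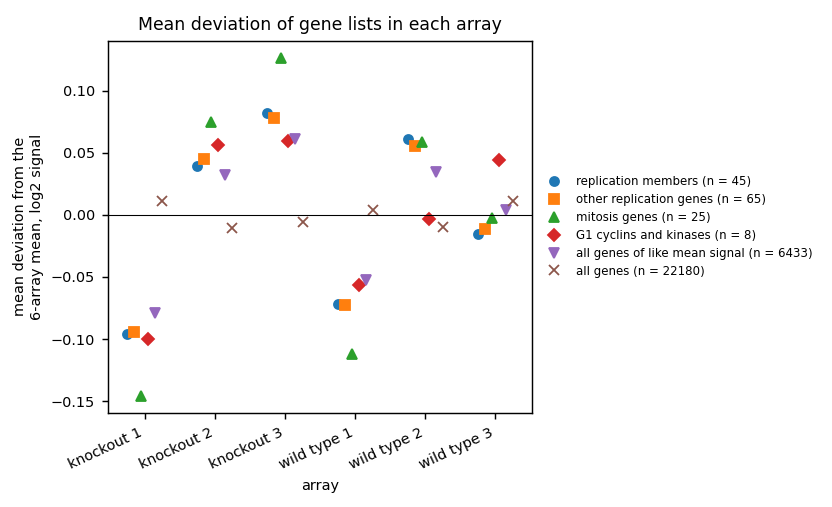
Mean deviation from the gene's 6-array mean, in log2 signal, for 4 gene lists, for all genes of like mean signal and for all genes, on each array. The 4 gene lists and the genes of like mean signal lie below 0 in both arrays numbered 1. All genes together lie within 0.02 of 0 on every array.

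Same-numbered arrays gave different directions. In the pair numbered 1, 19 members (42.2%) were higher and 26 lower in the knockout, with a median of -0.01. In the pair numbered 2 the split was 20 to 25 (44.4% higher), also at -0.01. Of genes of like signal, 38.3% were higher in the pair numbered 1 and 49.3% in the pair numbered 2. In the pair numbered 3, 38 members (84.4%) were higher in the knockout, with a median of 0.09, against 68.6% and 0.05 for genes of like signal and 49.3% of all genes. All 3 pair differences had 1 sign for 11 members (24.4%), against 26.6% of all genes. The mean level of B cell markers was highest in knockout replicate 3, as were 6 of the 9 measured markers. Of the 9, 7 had a difference above 0, with mean levels of 7.06, 6.69 and 7.33 in the knockout against 6.87, 6.44 and 6.90 in the wild type. The receptor signalling gene Cd79a read between 6.36 and 7.79. Megakaryocyte markers lay below 0 for 9 of 10, with mean levels between 6.77 and 7.01 in the knockout and between 6.997 and 7.28 in the wild type. Differences above 0 were found for 48.2% of all genes and for 9 of 11 erythroid markers. The counts were 7 of 12 for granulocyte and monocyte, 4 of 7 for T and NK cell and 1 of 7 for macrophage markers. Granulocyte and monocyte markers had a mean level of 6.03 in knockout replicate 3 and of 5.64 to 5.83 in the others. Macrophage markers had 6.24 in that array and 6.26 to 6.53 in the others. Some markers had means below 5.70, the limit of the dimmest probe sets. Among granulocyte and monocyte markers they were Ly6c2, Ly6g, S100a8 and Camp. Ms4a1 and Vpreb1 (B cell), Adgre1 and C1qc (macrophage), and Cd8a and Klrb1c (T and NK cell) were also that dim. Differences in markers this dim cannot be read as shifts in cell content. The part of these lists in the differences of the replication genes was not tested.

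Replication genes outside the 46 gave a like picture. Of 70 further genes in 6 groups, 65 were measured, and 0 had an unadjusted limma p under 0.05. Their median difference was 0.01, with 37 above 0 (56.9%). Without knockout replicate 3 there were 20 above 0 and a median of -0.02, and without knockout replicate 1 there were 51 and 0.07. Both arrays numbered 1 were lowest for 41 (63.1%). E2F and retinoblastoma family regulators had 12 of 13 above 0 (92.3%), with a median of 0.05. Above 0 were 48.2% of all genes and 55.7% of genes within the members' range of mean signal. Without knockout replicate 3 the regulators had 8 of 13 above 0 and a median of 0.01. Their median with 1 array left out ran up to 0.12, without knockout replicate 1. The smallest p among the regulators was that of Rb1, the retinoblastoma protein that restrains E2F. It read 11.03, 11.04 and 11.13 in the knockout against 10.94, 10.91 and 11.02 in the wild type. Its groups did not overlap, by a narrow gap between knockout replicate 1 at 11.028 and wild-type replicate 3 at 11.020. The difference of Rb1 was 0.11 (SE 0.09, interval -0.10 to 0.32), and its second probe set is not given here. Of the 65 genes, 1 had groups that did not overlap, against 8.70% of all genes and 5.49% of genes of like signal.

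In the other groups the gene of smallest p did not pass the test either. Nme1, a nucleoside diphosphate kinase, read 8.10, 8.31 and 8.60 on knockout arrays 1 to 3 against 7.91, 8.52 and 6.91 on wild-type arrays 1 to 3. Its difference was 0.55 (SE 0.39), with wild-type replicate 3 far below the other arrays. Cul4a, a ubiquitin ligase scaffold that acts on Cdt1, differed by 0.13 (SE 0.10). Pold4, the small subunit of polymerase delta, differed by -0.10 (SE 0.12), the ring-binding protein gene Mcmbp by -0.08 (SE 0.09) and the maintenance methyltransferase gene Dnmt1 by 0.05 (SE 0.08).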

How the data were processed

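The deposited values are log2 signals of 41345 probe sets on 6 arrays. The submitters' processing notes name Affymetrix Expression Console 1.4.1.46. Of background correction, normalization and summarisation the sources used here say nothing, and the log2 scale was read from the values. Symbols came from the array annotation (23521 probe sets with 1 symbol, 1814 with several) and were updated through RefSeq. Differences were fitted with limma 3.58.1 (lmFit, eBayes) in R 4.3.3 on all probe sets, with Benjamini-Hochberg adjustment and a threshold of 0.05; the fit was tested on simulated data. Members and lists were chosen with earlier results of these data known. Values on every array are given for the 2 members of smallest p and the one of largest SD in each role, and other replication genes are named by the smallest p in their group. The pattern over arrays was singled out after the values were seen. The titles number the biological replicates 1 to 3 in both groups and do not say what a number shares. Deviations of same-numbered arrays from their group means correlated at 0.285, 0.116 and 0.115 across all genes (0.327, 0.0261 and -0.027 across the members). For arrays of different number the values across all genes ran from -0.198 to 0.0953. Across the members, knockout replicate 3 and wild-type replicate 2 correlated at 0.310. Only for the arrays numbered 1 did the pair stand clearly above the others in both sets. By the values over all genes a fit with the number as a replicate block was run. The number of arrays limits the precision.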

Additional observations from a re-analysis of the deposited data

How the results depend on the processing

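In 15 alternative fits and 2 more added after seeing the data, 0 members passed an adjusted or an unadjusted limma p of 0.05, and the smallest adjusted p of a member was 0.698. The replicate block changed no call. It cannot change the differences, since each number occurs once in each group. Leaving out dim probe sets, taking 1 probe set per gene and limma-trend cannot change them either. These fits therefore repeat the main median of 0.02. The median of the members was above 0 in 15 fits, these repeats included, and below 0 in 2, from -0.03 to 0.08. Probe sets past the adjusted threshold numbered 0, and 1 with centred arrays, 1 with array weights and 0 to 2 with 1 array left out. Members above 0 numbered 17 to 36 with 1 array left out. Members whose groups did not overlap numbered 7 after quantile normalization (10.2% of all genes), 1 with centred arrays (8.22%) and 3 to 14 with 1 array left out (14.6% to 26.2%). They numbered 17 without both arrays numbered 1 (37.8% of all genes) and 29 without the 3 arrays with both sex-linked signals (71.9%), where fewer arrays make overlap rarer; in the latter the lone knockout array is assumed to vary like the others. Among the 23 genes given array by array by rule, differences near 0 changed sign. With the sex-linked block Lig1 was 0.025, Mcm2 0.013, Orc1 0.062, Prim1 0.016 and Rfc5 0.076; with array weights Prim1 was 0.029 and Rfc5 0.024; with all probe sets averaged Rrm2 was -0.042. Without both arrays numbered 1 Orc1 was 0.016, and without the 3 arrays Orc1 was 0.069 and Pcna 0.020. With 1 array left out the ranges were -0.081 to 0.139 for Fen1, -0.068 to 0.111 for Mcm3, -0.121 to 0.053 for Orc1, -0.0995 to 0.048 for Prim1, -0.084 to 0.062 for Rfc5, -0.046 to 0.115 for Rrm2 and -0.0031 to 0.111 for Tyms. The cause of these changes was not tested. Without scanner intensities, how far each signal lies above background is unknown here.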
